A study of Mus musculus with 14 samples.

Results

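The effect of the S133A substitution in CREB was examined in TGFβ-treated lens epithelial cells. The comparison took the TGFβ libraries of the 3 lines labelled S133A-CREB, S133A-KCREB and, with both substitutions, S133A/R314A-CREB, and set them against those of the 3 lines labelled WT-CREB, KCREB and R314A-CREB. These are 6 of the 14 libraries of the series, and they form 3 pairs that share the state of the basic leucine zipper (bZIP), which is intact, K or R314A. Pairs are named by that state below, so the intact pair is S133A-CREB against WT-CREB. A gene was kept when its mean over the 6 libraries was at least 5 TPM, a level corrected for transcript length and for the library total, which held for 10464 of 40853 gene identifiers. Just inside this limit were AB124611 at 5.000019 TPM and Pih1d2 at 5.003328 TPM, and just outside it were Ankrd39 at 4.999484 TPM and Gm7241 at 4.996340 TPM.

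All lines were derived from αTN4-1, a mouse lens epithelial line from a transgenic lens tumour in which the promoter of the αA-crystallin gene drove a viral T antigen. The labels name a construct for each line and give growth under neomycin, although their protocol does not name the K lines. Whether a line is 1 clone or a pool is not given. TGFβ was given to the 6 cultures at 20 ng/mL, and they were kept without serum for the 24 h of treatment. Each line had 1 such library and 1 control library, and a line labelled Vector was left out of the tests. The labels do not say whether control cells also went without serum. The 3 lines of each group carry different constructs and so are not replicates of 1 condition. With the bZIP state in the fit, the SE, intervals and p-values below start from the spread of the 3 pair differences of a gene. The program limma draws that spread towards the spread of other genes at a similar level. They therefore do not measure the spread of the gene's own pairs alone. The spread of the pairs also holds any dependence of the S133A difference on the bZIP state.

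CREB binds cAMP response elements (CREs) in promoters as a dimer through its bZIP. Protein kinase A and several other kinases phosphorylate the serine S133, which then recruits the coactivators CBP and p300, and replacing this serine by alanine removes that switch. KCREB carries a change in the DNA-binding region and forms dimers that no longer bind CREs. R314A lies in the leucine zipper and impairs binding of the CRTC coactivators, a route to CREB activity that does not need S133. TGFβ acts through SMAD proteins and drives lens epithelial cells towards a mesenchymal, matrix-producing state, as in the fibrosis that can follow cataract surgery.

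As a check of the labels, the gene that encodes CREB was read first (Creb1, on chromosome 1 from 64571963 to 64643707 in GRCm39). It stood at 9.68 TPM in the WT-CREB library, 30.1 TPM in KCREB and 5.89 TPM in R314A-CREB. With S133A it stood at 4.43 TPM in S133A-CREB, 38.3 TPM in S133A-KCREB and 6.01 TPM in S133A/R314A-CREB. The Vector library held 23.1 TPM, so only the lines labelled with K lay above it, and the other 4 go against a label of CREB overexpression. Line names below are therefore those of the labels. Neither the species nor the codon usage of the construct is given in the labels, and reads from a construct that differs from the mouse gene need not be counted under Creb1. The S133A difference of Creb1 was -0.20 ± 0.31 (log2, SE, 3 pairs), and the groups overlapped.

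The libraries of the 2 groups also differed in other ways. Depth was read from the base coverage behind 1 FPKM, another level per transcript length, and was 7.76, 6.08 and 5.74 in WT-CREB, KCREB and R314A-CREB, and 10.07, 6.9 and 6.89 in their S133A partners. Mitochondrially encoded genes took 8.64%, 7.28% and 7.21% of TPM in the first 3 and 5.75%, 6.75% and 6.04% in the partners. In each pair the S133A library was thus the deeper and had the lower mitochondrial share. The part of either in the results was not tested.

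A single gene passed in limma on log2(TPM + 1) with the bZIP state as a term (adjusted p under 0.05, 0.00956% of the 10464 genes tested). At an unadjusted p under 0.05 there were 729 genes (6.97%), 443 higher (4.23%) and 286 lower (2.73%) with S133A. A larger number pointed the same way in all 3 pairs, 1581 higher (15.1%) and 1576 lower (15.1%). The 3 S133A libraries lay entirely above the other 3 for 623 genes (5.95%) and entirely below for 619 genes (5.92%). A difference of at least 2-fold in each pair was seen for 22 higher genes (0.21%), of which 7 are predicted genes, and for 1 lower gene (0.00956%), Rsph9. The 3 pairs had little in common across genes: the pair differences correlated with Pearson's r of 0.01 between the intact and K pairs, -0.06 between the intact and R314A pairs and 0.18 between the K and R314A pairs (10464 genes, which are not independent). Single pairs differed more widely, with 477 genes at least 2-fold higher and 143 lower in the intact pair (4.56% and 1.37%), 323 and 303 in the K pair (3.09% and 2.9%), and 186 and 211 in the R314A pair (1.78% and 2.02%).

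The gene that passed was Cox7b2, which encodes the testis form of a small subunit of cytochrome c oxidase, the last complex of the respiratory chain (chromosome 5, 71600166 to 71705548). It stood at 3.89 TPM in WT-CREB, 3.92 TPM in KCREB and 2.36 TPM in R314A-CREB, against 61.1 TPM in S133A-CREB, 44.9 TPM in S133A-KCREB and 37.8 TPM in S133A/R314A-CREB. The groups were far apart, with means of 3.39 ± 0.889 and 47.9 ± 11.9 TPM (SD, n = 3 lines each). With a mean below 5 TPM in the lines with intact S133, Cox7b2 passed the filter only through the S133A libraries. It therefore had to differ in this direction, and without a filter its adjusted p in limma was 0.812. The difference was 3.47 ± 0.19 (log2, SE, 95% CI 2.99 to 3.96), and the adjusted p in limma was 0.0452. The Vector library held 27.0 TPM, between the groups and nearer to the S133A lines. The call was lost under 7 of the other settings and without the K or the R314A pair, with the difference between 3.45 and 3.79 in each of these.

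The 12 genes named as higher were those with the largest difference in their weakest pair, among genes whose groups did not overlap, so the separation of these 12 is a matter of choice and not a result. After Cox7b2, several are genes of the germ line or of tissues other than the lens. Nlrp4e, an NLR family gene of the oocyte (chromosome 7, 23000617 to 23061702), was at 0.0734 TPM in WT-CREB and 0.0387 TPM in KCREB and listed at 0 in R314A-CREB, against 11, 10.7 and 13.5 TPM in the S133A lines in the same order. Pnma5, a paraneoplastic antigen family gene, was at 4.45, 2.60 and 0.339 TPM against 34.0, 14.2 and 41.3 TPM. Tubb3, the neuronal β-tubulin, was at 0.0115, 8.34 and 3.99 TPM against 10.9, 71.0 and 14.5 TPM. Of the 42 germ line and oocyte genes, 5 passed the filter (Nlrp4e, Cox7b2, Pnma5, Rhox5 and Rsph9), the first 3 only through the S133A libraries, so no count is given for that list. Tubb3, Cyp2b13, Cyp3a41a, Pcdhb16 and Cd48 also passed the filter only through those libraries, with means below 5 TPM in the lines with intact S133, so that they had to differ. In Nlrp4e, Pnma5 and Tubb3 the S133A libraries were the high ones in each pair, but neither Nlrp4e (adjusted p = 0.527 in limma) nor Pnma5 and Tubb3 (0.695 for both) passed. Members of the Nlrp4 family share sequence, as do those of Cyp2b, Cyp3a and the protocadherin β cluster named next, so how reads were divided among the copies, and hence each of these values, is uncertain.

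Mmp9, the gelatinase that cuts denatured collagen and basement membrane (chromosome 2, 164782246 to 164797770), came next to Cox7b2 among named genes. It stood at 5.90 TPM in WT-CREB, 8.29 TPM in KCREB and 15.5 TPM in R314A-CREB, against 109 TPM in S133A-CREB, 60.0 TPM in S133A-KCREB and 268 TPM in S133A/R314A-CREB. The lowest S133A library thus lay above the highest of the other 3, with a difference of 3.58 ± 0.29 (log2, SE, 95% CI 2.85 to 4.31, limma adjusted p = 0.116). Vector was at 47.9 TPM. Among the rest, the cytochrome P450 genes Cyp2b13 and Cyp3a41a differed by 2.41 ± 0.34 and 2.34 ± 0.68, the latter with 29.3 TPM in S133A-CREB and under 3 TPM in the other 5 libraries. Cd48, a leukocyte surface receptor, was at 1.02 TPM in WT-CREB, listed at 0 in KCREB and at 0.103 TPM in R314A-CREB, against 18.4, 1.49 and 19.5 TPM. The protocadherin Pcdhb16 differed by 1.78 ± 0.38. Kank4os, whose transcript lies antisense to Kank4, differed by 1.66 ± 0.24, and since the sources used here do not say that counting used strand, its reads cannot be told from those of Kank4. The G protein γ subunit Gng11 (20.7, 16 and 47.2 TPM against 74.9, 49.0 and 115 TPM) and the tubulin-binding Tppp3 (35.6, 40.5 and 63.3 TPM against 80.5, 96.0 and 178 TPM) were the most abundant of the 12 besides Mmp9, with adjusted p of 0.314 and 0.327 in limma.

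The 12 genes named as lower by the mirrored rule differed less, by -0.66 to -2.06 (log2), and none had an adjusted p below 0.695 in limma. Rsph9, a radial spoke protein of motile cilia and sperm tails (chromosome 17, 46432964 to 46455171), was at 14.5, 10.6 and 8.54 TPM in WT-CREB, KCREB and R314A-CREB against 4.12, 3.11 and 0.944 TPM in their S133A partners. Acss2, which makes acetyl-CoA from acetate, was at 37.3, 23.6 and 23.5 TPM against 19.3, 13.5 and 12.6 TPM, and Tm7sf2, a sterol reductase of cholesterol synthesis, at 55.5, 57.5 and 45.1 TPM against 34.2, 33.4 and 22.4 TPM. Eif2ak4, which encodes the amino acid sensor GCN2 (chromosome 2, 118219065 to 118305715), was at 64.7, 54.7 and 41.3 TPM against 35.2, 36.9 and 27.6 TPM. Chrdl1, a secreted BMP antagonist, differed by -1.10 ± 0.21, the centrosomal Ssx2ip by -1.05 ± 0.20 and Dbndd1 by -0.95 ± 0.25. Ppp2r2b, a regulatory subunit of protein phosphatase 2A, differed by -0.95 ± 0.25 and the RNA-binding Rbm12b2 by -0.82 ± 0.20. Creb3l1, a membrane-bound relative of CREB, owes its place to the WT-CREB library, with 32.5 TPM there and at most 0.664 TPM in the other 5. Snora75, a small nucleolar RNA, and TrnS2, a mitochondrial tRNA, complete the 12. TPM of such short RNAs rests on few positions and is the least certain here. Rsph9, Dbndd1, Creb3l1 and Snora75 passed the filter only through the lines with intact S133. Their means were below 5 TPM in the S133A lines, so that they had to differ.

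**Figure D1:**
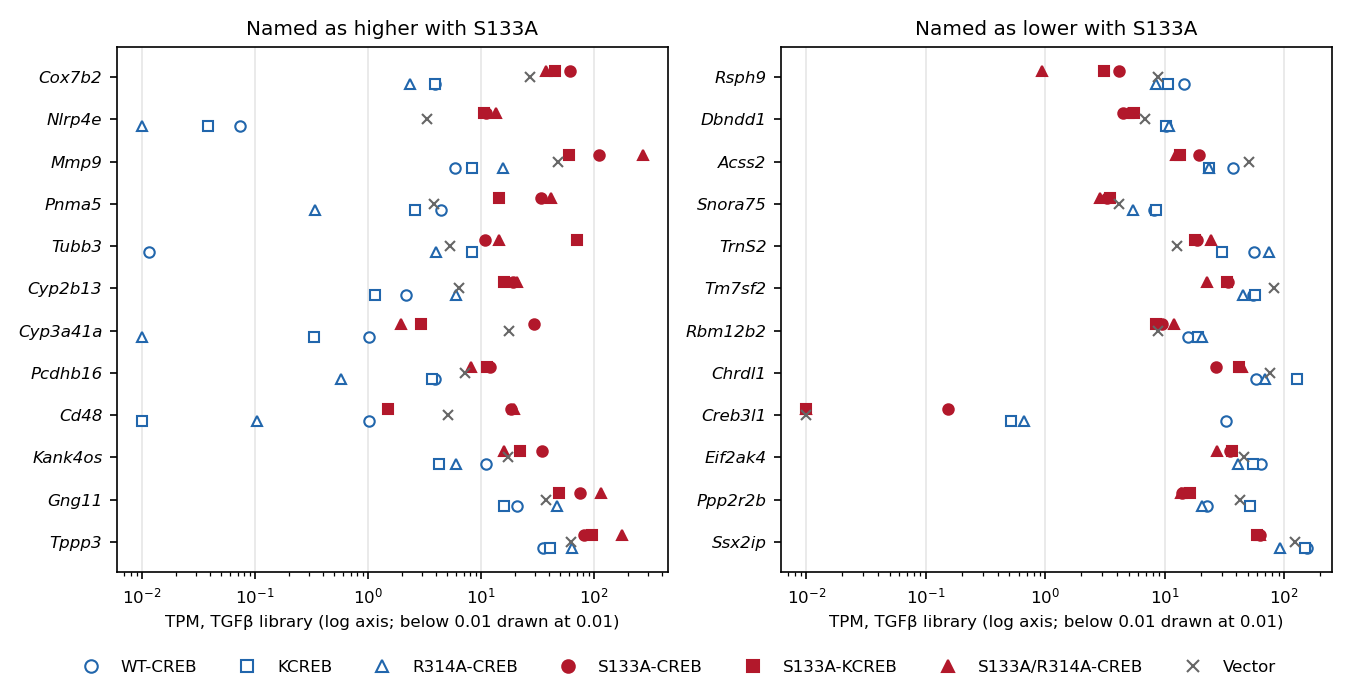
TPM of the 24 named genes in each TGFβ library, on a log axis with values under 0.01 drawn at 0.01. Open blue symbols are the lines with intact S133, filled red symbols the S133A lines (circle, square and triangle for intact, K and R314A bZIP), and the cross is Vector, which lies between 3.33 TPM for Nlrp4e and 61.8 TPM for Tppp3 among the 12 genes on the left.

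Vector took no part in choosing these genes. Of the 12 higher genes its TPM fell within the range of the S133A lines for 3 and within that of the intact lines for 4, and it was on the S133A side of the midpoint between the group means for 7. Of the 12 lower genes it fell within the S133A range for 2 and the intact range for 5, and on the S133A side of the midpoint for 5. With 1 Vector library, no test was made.

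The same contrast was read in the control libraries of the same lines, which the choice of genes did not use, although the lines are the same and so are repeated and not new. Within a pair, the differences with and without TGFβ resembled each other far more than those of any 2 pairs, with Pearson's r across genes of 0.895 in the intact pair, 0.823 in the K pair and 0.739 in the R314A pair. Of 3157 genes with the same direction in all 3 TGFβ pairs, 1551 had that direction in all 3 control pairs and 29 the opposite. Of the 22 genes at least 2-fold higher in each TGFβ pair, 20 were higher in all 3 control pairs and 14 at least 2-fold. Of the 24 named genes, 11 of the 12 higher and 7 of the 12 lower kept their direction in all 3 control pairs. In control cells Cox7b2 was at 1.17, 2.54 and 2.65 TPM against 61.1, 56.6 and 42.7 TPM, a difference of 4.15 ± 0.30. No gene passed in the control libraries (0% of genes, smallest limma adjusted p = 0.239, 509 genes or 4.86% at an unadjusted p under 0.05).

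Mmp9 differed less in control cells. In control cells it stood at 2.51, 3.67 and 3.27 TPM against 21.2, 3.96 and 10.4 TPM, a difference of 1.39 ± 0.53. The S133A difference was therefore larger with TGFβ by 2.19 ± 0.28 (log2, SE, 95% CI 1.49 to 2.90), and by 1.34, 2.63 and 2.61 in the intact, K and R314A pairs. As a test of the interaction of S133A with TGFβ this did not pass (limma adjusted p = 0.773), and no gene did (0%, with 362 genes or 3.46% at an unadjusted p under 0.05). The other genes named for a larger difference with TGFβ were Krt14, a basal epithelial keratin (interaction 1.77 ± 0.47), the TNF receptor family gene Cd40 (1.47 ± 0.36), Cnbd2 (1.25 ± 0.22) and the aggrecanase Adamts4 (1.08 ± 0.15). Krt14 stood at 9.02, 0.219 and 1.17 TPM against 10.3, 15.1 and 42.7 TPM with TGFβ. Its mean was below 5 TPM in the lines with intact S133, so it passed the filter only through the S133A libraries. On the other side were Snora75 (-1.56 ± 0.23), the neighbouring mitochondrial tRNA genes TrnH (-1.56 ± 0.22), TrnS2 (-1.52 ± 0.18) and TrnL2 (-1.44 ± 0.17), and the steroid sulfatase gene Sts (-0.84 ± 0.17).

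**Figure D2:**
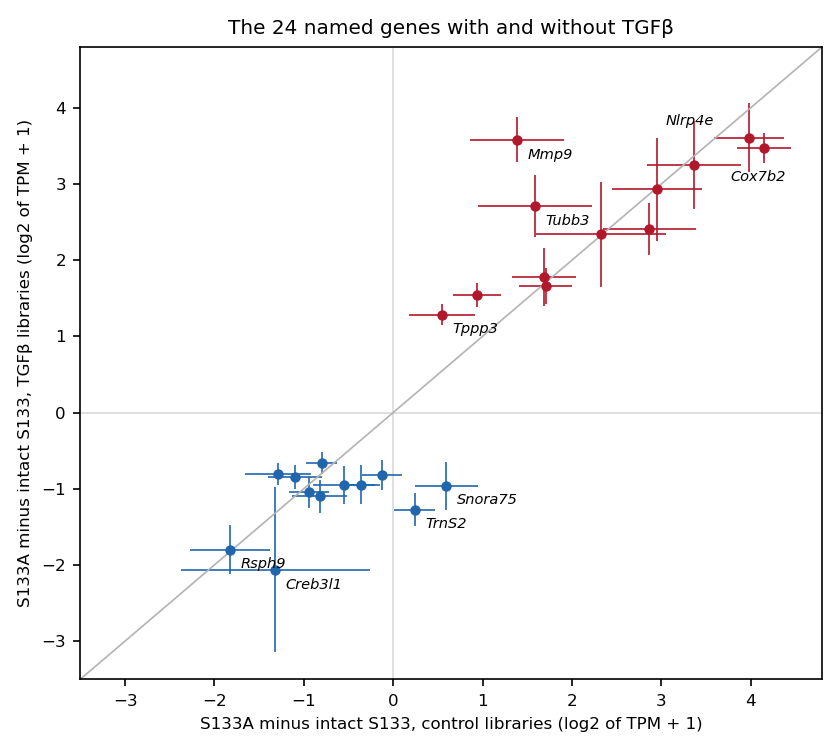
S133A minus intact S133 (log2 of TPM + 1) for the 24 named genes in the control libraries (horizontal) and the TGFβ libraries (vertical), with SE bars from limma and the line of equal differences. Most genes lie near the line, Mmp9 lies above it (1.39 and 3.58), and Snora75 and TrnS2 are on opposite sides of 0 in the 2 treatments.

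Genes that separated the groups were unevenly spread along the genome. Those whose groups did not overlap were not shared out evenly over chromosomes, beside 5.95% higher and 5.92% lower over all genes. On chromosome 7, 111 of 768 genes (14.5%) were higher and 1 lower, on chromosome 13, 65 of 375 (17.3%) and 0, on chromosome 16, 54 of 341 (15.8%) and 2, and on chromosome 6, 53 of 476 (11.1%) and 4. On chromosome 2, in contrast, 8 of 846 were higher and 135 (15.96%) lower, on chromosome 3, 4 of 497 and 57 (11.5%), and on chromosome 17, 4 of 549 and 56 (10.2%). Chromosomes 1 and 10 had similar numbers on both sides, 36 and 32 of 600 and 27 and 27 of 508.

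The median difference of all tested genes shifted over whole chromosomes or long stretches of them, and each pair had its own pattern. On chromosome 7 the K pair was shifted over the first 75 Mb, with a median of 0.61 over 372 genes, and not beyond (-0.02 over 396 genes). In the intact and R314A pairs the second stretch was the more shifted, at 0.40 and 0.33, against 0.15 and -0.06 in the first. On chromosome 13 the first 50 Mb were shifted by 0.57 in the K pair and 0.36 in the R314A pair but by -0.01 in the intact pair, which was shifted by 0.35 over the rest. On chromosome 16 the first 50 Mb were shifted by 0.37 in the intact pair and 0.46 in the R314A pair, against -0.01 in the K pair. Chromosome 3 had medians of -0.16, -0.39 and -0.04 in the intact, K and R314A pairs, and chromosome 17 of 0.05, -0.08 and -0.39. Chromosome 2 was lower in all 3 pairs (-0.15, -0.24 and -0.17). The control libraries of these lines had much the same shifts: over 112 segments of 25 Mb with at least 20 tested genes, the segment medians with and without TGFβ correlated with Pearson's r of 0.960, 0.976 and 0.957 in the intact, K and R314A pairs.

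**Figure D3:**
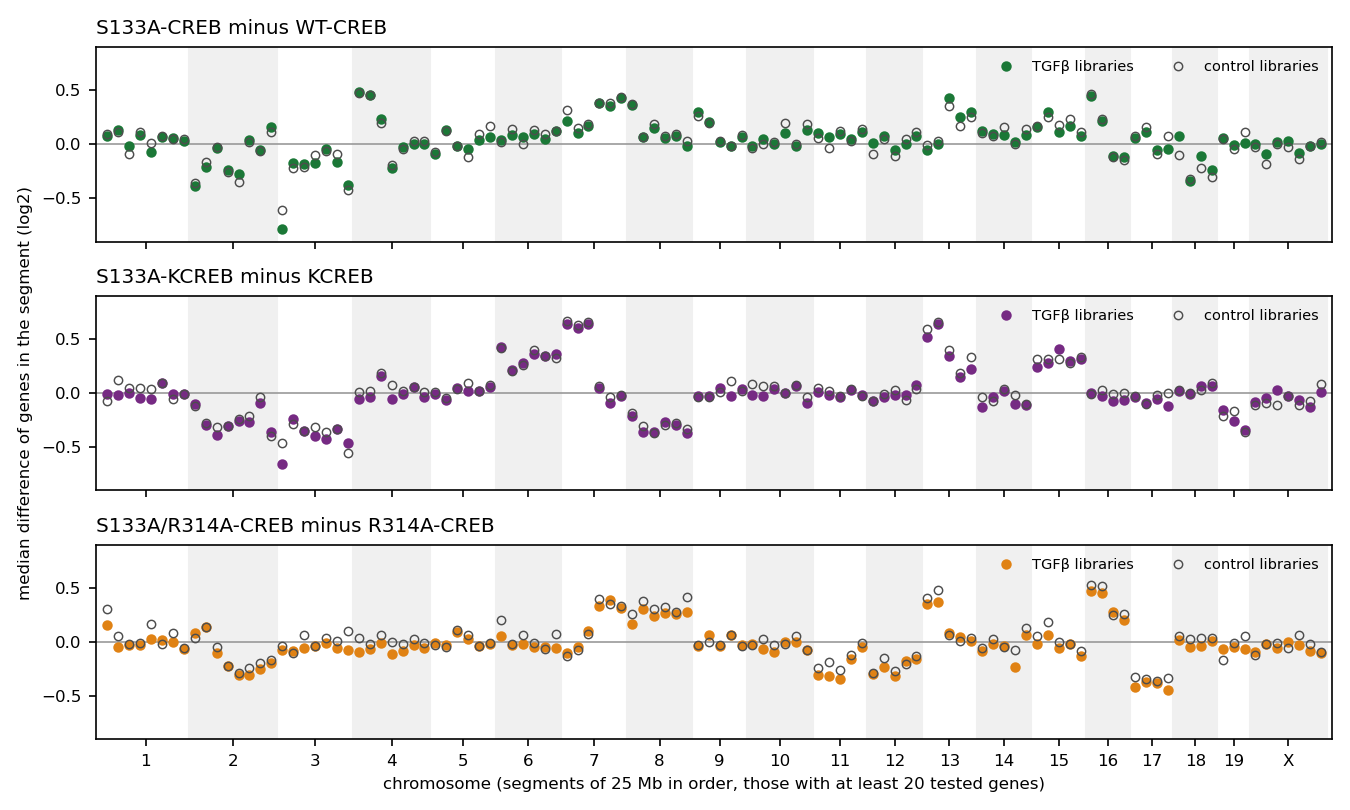
Median S133A difference (log2 of TPM + 1) of the tested genes in each segment of 25 Mb along the chromosomes, for each pair, in TGFβ libraries (filled) and control libraries (open). Runs of neighbouring segments are shifted together, such as the first 75 Mb of chromosome 7 in the K pair (0.61) and chromosome 17 in the R314A pair (-0.39 over the chromosome), and the 2 treatments lie close together.

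Lines of the same group also differed in this way. On chromosome 3, for example, the median deviation from the mean of the 6 libraries was 0.28 in WT-CREB and -0.39 in S133A-KCREB, and between -0.01 and 0.10 in the other 4. DNA copy number was not measured here, and its part in these shifts was not tested. When the values were centred by chromosome in each library, no gene passed (smallest limma adjusted p = 0.0693, for Cox7b2, 593 genes at an unadjusted p under 0.05), and 510 genes lay entirely above and 599 entirely below. Of the 623 and 619 genes without centring, 345 and 386 were among these. The 2-fold genes were little touched, with 20 of the 22 higher genes kept. Eif2ak4 went from -0.66 to -0.47, Acss2 from -0.84 to -0.66 and Pax6, below, from -0.73 to -0.54, all 3 on chromosome 2. Gng11 went from 1.54 to 1.41, and its groups then overlapped. Some list members named below lost a larger part, such as Akap13 (0.44 to 0.19), Smad5 (0.45 to 0.19), Bag3 (0.42 to 0.17) and Pfkp (0.49 to 0.22). Others changed little, such as Mmp14 (0.63 in both), or rose, such as Gstm2 (0.60 to 0.79). Differences of list members below are without centring unless stated.

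Promoters were read because CREB acts at CREs near start sites. The sequences below are RefSeq windows on GRCm38.p6, from 250 bases before to 50 after the start of the gene, 5′ to 3′ on the strand of the gene. They show the gene that passed, the lens regulator Pax6, of whose 2 windows in the table the one shown was chosen for its full CRE, and the lens gene Cryaa, with capitals for a CRE (TGACGTCA) or its half-site (TGACG, or CGTCA on the other strand).
Cox7b2 (chr5:71548156-71548455, minus strand): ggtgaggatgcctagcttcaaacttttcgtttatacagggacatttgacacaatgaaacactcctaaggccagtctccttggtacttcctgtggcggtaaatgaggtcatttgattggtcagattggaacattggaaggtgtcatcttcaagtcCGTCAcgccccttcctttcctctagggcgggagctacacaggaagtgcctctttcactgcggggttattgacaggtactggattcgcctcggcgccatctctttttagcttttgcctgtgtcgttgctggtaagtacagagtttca
Pax6 (chr2:105668646-105668945, plus strand): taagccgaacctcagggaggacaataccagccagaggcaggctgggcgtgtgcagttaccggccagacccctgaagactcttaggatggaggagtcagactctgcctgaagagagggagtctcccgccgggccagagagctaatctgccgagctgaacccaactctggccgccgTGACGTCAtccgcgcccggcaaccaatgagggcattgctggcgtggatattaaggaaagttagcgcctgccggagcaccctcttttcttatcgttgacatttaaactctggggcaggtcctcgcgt
Cryaa (chr17:31677681-31677980, plus strand): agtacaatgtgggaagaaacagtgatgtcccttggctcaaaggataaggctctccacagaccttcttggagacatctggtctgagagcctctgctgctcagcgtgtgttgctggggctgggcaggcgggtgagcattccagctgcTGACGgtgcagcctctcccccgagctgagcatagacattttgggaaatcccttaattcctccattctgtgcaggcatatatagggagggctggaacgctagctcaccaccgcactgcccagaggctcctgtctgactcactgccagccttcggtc
The full CRE of Pax6 starts 76 bases before the start site. Cox7b2 and Cryaa each hold a half-site and no full CRE. Of the named higher and lower genes with a window, 0 of 8 and 0 of 5 hold a full CRE. Nlrp4e holds neither, and for Eif2ak4 the window chosen likewise from 2 holds a half-site that starts 34 bases before the start site.

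A gene with several windows was counted if any held the motif. A full CRE, searched on both strands, stood in 3.69% of the 8309 tested genes with a window. It stood in 2.57% of the 506 such genes that lay entirely above with S133A and in 3.64% of the 494 that lay entirely below. The half-site, which every full CRE also holds, stood in 37.3% of all, 31.6% of the higher and 43.5% of the lower genes. The AP-1 motif TGAGTCA, which binds FOS and JUN dimers, stood in 4.4% of all, 7.12% of the higher and 4.05% of the lower genes. Over all 32851 windows of the table the shares were 1.79% for the CRE, 20.8% for the half-site and 5.2% for AP-1. These are shares of letters in windows and not of bound sites.

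Gene lists are described by how many tested members pointed the same way in all 3 pairs (15.1% of all genes were higher and 15.1% lower) and by the median difference, which was 0.01 over all genes. The 3 S133A libraries lay entirely above the other 3 for 5.95% of all genes and entirely below for 5.92%. After centring by chromosome, 1400 of the 10464 genes were higher and 1541 lower in all 3 pairs. Of the same 10464 genes, 510 then lay entirely above and 599 entirely below. Among classical cAMP-CREB targets, 5 of 26 were higher and 0 lower in all 3 pairs, with a median of 0.11. The pluripotency and stress factor Klf4 was at 34.9, 34.7 and 35.7 TPM in WT-CREB, KCREB and R314A-CREB against 48.1, 77.3 and 44.2 TPM in their S133A partners in the same order. The activin subunit gene Inhba was at 17.4, 5.78 and 13.5 TPM against 21.5, 31.4 and 20.1 TPM. Groups did not overlap for either, and Id1, an inhibitor of bHLH factors, overlapped (28.7, 13 and 11.1 TPM against 28.7, 30.3 and 23.3 TPM). After centring by chromosome the groups overlapped for Inhba, whose difference went from 1.03 to 0.76, and no longer for Id1 (0.72 to 0.91). CREB relatives and coactivators had 3 of 17 higher and 3 lower, and Creb3, a membrane-bound relative, was at 79.1, 139 and 159 TPM against 175, 180 and 270 TPM. Creb3 (from 43562658 on chromosome 4) is the neighbour of Tln1, below, which ends at 43562583. The segment from 25 to 50 Mb that holds both had an intact pair median of 0.46 with TGFβ and 0.45 in control. Centring by whole chromosomes left Creb3 at 0.73, and the part of that shift in either gene was not tested. In the protein kinase A and cyclic nucleotide list, 4 of 25 were higher and 2 lower, among them the anchoring protein Akap13 (0.44 ± 0.15), the adenylyl cyclase Adcy6 (0.38 ± 0.15) and the kinase inhibitor Pkia (-0.51 ± 0.20). None of the list members named here or below, apart from Cox7b2, passed over all genes in limma.

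Lists of the response to TGFβ had more members higher and fewer lower in all 3 pairs than the 15.1% each over all genes. These lists are small, and the counts were not tested. Of SMAD-induced targets, 6 of 24 were higher and 1 lower in all 3 pairs, with a median of 0.23 and 12 of 24 higher in the intact pair alone, and Ski, a brake on SMAD activity, was at 105, 104 and 93.9 TPM against 140, 147 and 134 TPM. Ligands, receptors and SMADs had 5 of 24 higher and 1 lower (median 0.11), with Smad5 at 0.45 ± 0.17 and the latent binding protein Ltbp1 at -0.75 ± 0.21. Of 8 EMT transcription factors 2 were higher and 0 lower, and Snai2 was at 22.0, 26.1 and 33.8 TPM against 66.2, 29.3 and 49.9 TPM, with overlap.

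In the list of mesenchyme, matrix and myofibroblast genes 10 of 28 were higher and 4 lower in all 3 pairs. Entirely above lay 6 and entirely below 0, beside 5.95% and 5.92% over all genes. The median was 0.36, against 0.12 without the intact pair. Beside Mmp9, the membrane metalloproteinase Mmp14 was at 146, 132 and 156 TPM against 235, 207 and 233 TPM, and the collagen cross-linking oxidase Loxl1 at 63.0, 50.2 and 60.9 TPM against 115, 71.7 and 109 TPM. Fibronectin (Fn1) was at 1379 TPM in WT-CREB, 292 TPM in KCREB and 741 TPM in R314A-CREB, against 1970.4, 1058 and 1254 TPM, so each pair pointed the same way while the groups overlapped. Integrins and focal adhesion genes had 9 of 17 higher and 1 lower, with 5 entirely above and 1 entirely below and a median of 0.35, or 0.14 without the K pair. Paxillin (Pxn) was at 64.4, 65.9 and 81.3 TPM against 86.8, 112 and 110 TPM. Talin (Tln1), in the shifted segment of chromosome 4 given above, was at 261, 505 and 621 TPM against 642, 659 and 761 TPM. The fibronectin receptor subunit Itga5 was at 111, 90.6 and 115 TPM against 129, 139 and 183 TPM. After centring by chromosome, 9 and 4 of the matrix list and 8 and 2 of the adhesion list were higher and lower in all 3 pairs, and 6 and 3 genes lay entirely above. Of 7 epithelial junction genes 4 were higher and 0 lower, with plakophilin 2 (Pkp2) at 0.61 ± 0.14 and plakoglobin (Jup) at 0.69 ± 0.19.

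Of 16 tested lens epithelial regulators 0 were higher and 2 lower in all 3 pairs, with list medians of 0.14, -0.56 and -0.26 in the intact, K and R314A pairs. Pax6, the master regulator of eye development (chromosome 2, 105499241 to 105528755), was at 61.9 TPM in WT-CREB, 187 TPM in KCREB and 116 TPM in R314A-CREB against 54.4, 89.7 and 59.4 TPM. The groups overlapped, and the difference was small in the intact pair. Jag1, a Notch ligand needed for fiber differentiation, was at 87.2, 311 and 204 TPM against 71.8, 231 and 168 TPM. Of 26 crystallin and fiber genes 4 were tested, and Cryaa, the αA-crystallin gene, was at 18.2, 13.2 and 7.48 TPM against 5.71, 5.07 and 5.58 TPM. These levels are low for a lens gene, and 10 of the untested fiber genes were listed at 0 in all 6 libraries. Of 16 lens capsule genes 2 were higher and 1 lower, with the collagen IV chain Col4a6 at -0.93 ± 0.28.

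Interferon-stimulated genes differed widely within single pairs and had no shared direction. Of 38 tested, 35 were at least 2-fold higher with S133A in the intact pair and 30 at least 2-fold lower in the R314A pair, and 12 were at least 2-fold lower in the K pair. The list medians were 2.69, -0.67 and -2.10 in the intact, K and R314A pairs, and in control libraries 1.40, -0.72 and -0.63. Isg15, a ubiquitin-like modifier picked as an example after its values were seen, was at 118 TPM in WT-CREB, 190 TPM in KCREB and 1459.5 TPM in R314A-CREB, against 1178 TPM in S133A-CREB, 53.8 TPM in S133A-KCREB and 121 TPM in S133A/R314A-CREB. High libraries were thus R314A-CREB and S133A-CREB, 1 in each group. Over all 38 genes, 0 were higher and 1 (Ifi27) lower in all 3 pairs. MHC class I and antigen processing genes followed with medians of 0.75, -0.54 and -0.59, and 0 of 16 pointed the same way in all 3 pairs.

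**Figure D4:**
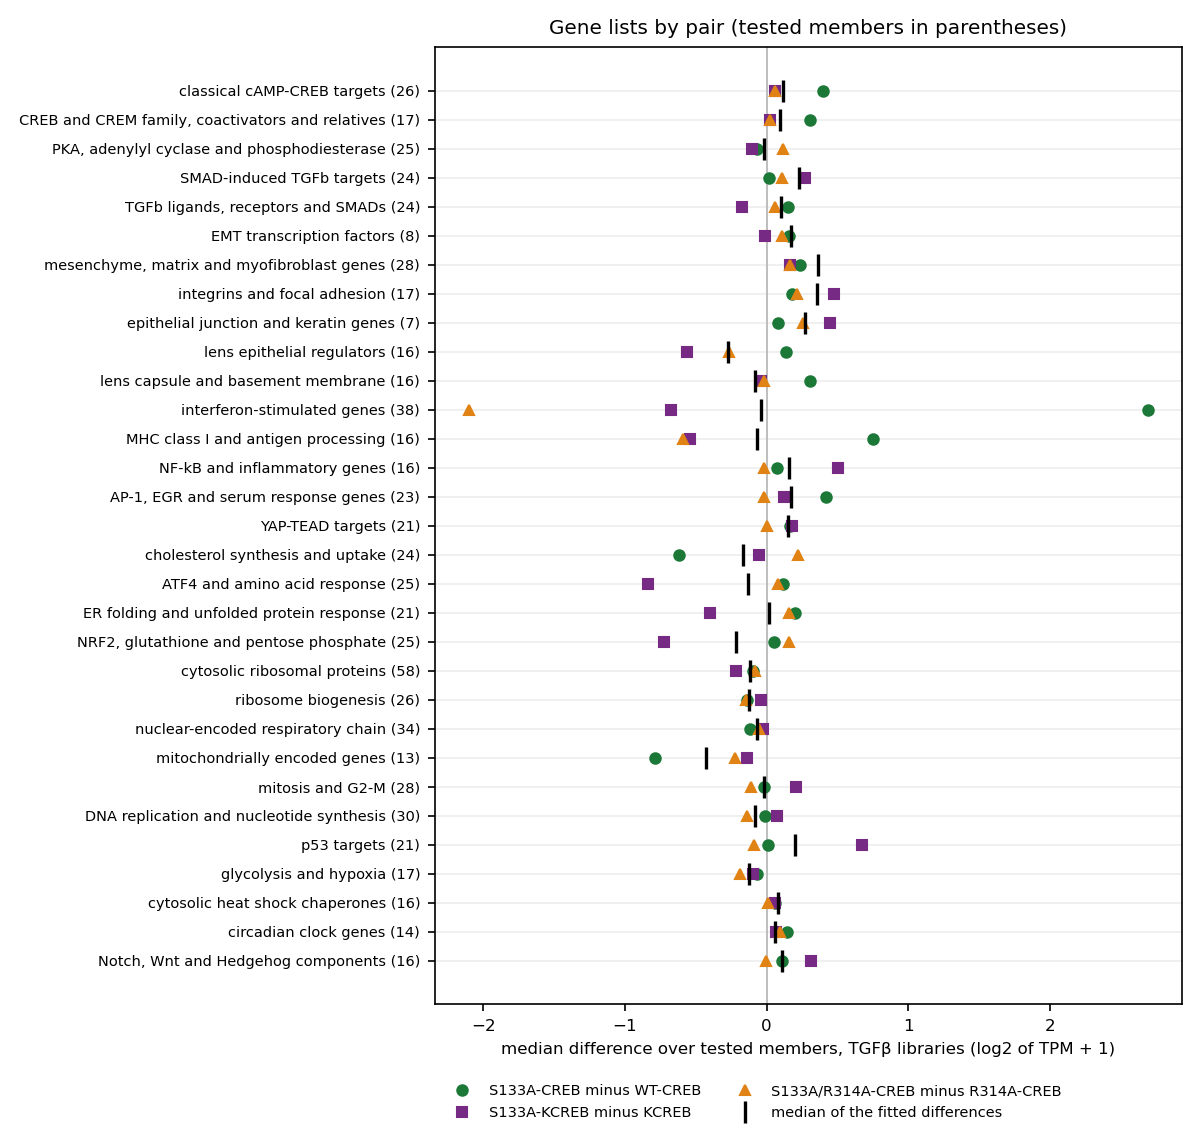
Median difference of the tested members of each gene list (log2 of TPM + 1, TGFβ libraries) in the intact pair (circle), K pair (square) and R314A pair (triangle), with a bar for the median of the fitted differences. Interferon-stimulated genes span from 2.69 to -2.10, while the 3 pairs lie close together for ribosomal proteins, at -0.09 to -0.22.

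Of 58 cytosolic ribosomal protein genes, 2 were higher and 21 lower in all 3 pairs. Entirely above lay 0 and entirely below 12, beside 5.95% and 5.92% over all genes. Their median was -0.12, and -0.16 after centring by chromosome. Rpl7a was at 68.8, 88.0 and 61.1 TPM against 44.7, 41.3 and 58.9 TPM, and Rpl26 at 19.2, 23.7 and 21.4 TPM against 16.7, 15.8 and 12.8 TPM. Levels of this family were low in every library, with a median of 20.6 to 25 TPM over the 58 genes in the 6 libraries, and whether they follow the mRNA content of the cells is not known. Ribosome biogenesis genes had 2 of 26 higher and 11 lower in TGFβ libraries (median -0.13), and their median in control libraries was 0.08, beside 0.03 over all genes. The nuclear-encoded respiratory chain had 3 of 34 higher and 10 lower (median -0.07), with pair medians of -0.11, -0.02 and -0.05 beside 0.07, -0.01 and -0.04 over all genes, and the complex I subunit Ndufs3 at 138, 145 and 136 TPM against 116, 93.7 and 104 TPM. All 13 mitochondrially encoded genes were tested, with 0 higher and 11 lower and 7 entirely below, and a median of -0.42. Their pair medians were -0.78, -0.14 and -0.22, and 4 were at least 2-fold lower in the intact pair. After centring by chromosome, which takes the shift of their own chromosome out, 4 were lower in all 3 pairs, 2 lay entirely below and the median was -0.16. Among them the complex I subunit ND2 was at 8822, 7416 and 8858 TPM against 4403, 5933 and 6423 TPM, and ATP8 (-0.68 ± 0.18), ATP6 (-0.49 ± 0.15) and ND6 (-0.47 ± 0.16) differed likewise, which is part of the lower mitochondrial share given above.

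Cholesterol genes had 3 of 24 higher and 3 lower in all 3 TGFβ pairs and medians of -0.61, -0.05 and 0.22. In the control libraries the list median was -0.38, beside 0.03 over all genes. Beside Tm7sf2, phosphomevalonate kinase (Pmvk) was at 163, 117 and 102 TPM against 99.6, 63.2 and 75.4 TPM, while farnesyl diphosphate synthase (Fdps) was at 1139 and 805 TPM against 649 and 488 TPM in the intact and K pairs and at 735 against 743 TPM in the R314A pair. Genes of ATF4 and of NRF2 and glutathione were lower mainly in the K pair, with medians of -0.83 and -0.72 there and between 0.06 and 0.16 in the other 2 pairs. From the former, the serine synthesis gene Phgdh differed by -0.49 ± 0.15 and the glutathione-degrading Chac1 by -0.49 ± 0.17. From the latter, the pentose phosphate entry enzyme G6pdx was at 308, 288 and 246 TPM against 209, 139 and 196 TPM, and Gclm, the modifier subunit of glutathione synthesis, differed by -0.64 ± 0.24. The glutathione transferase Gstm2 was on the other side (0.60 ± 0.14).

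Targets of p53 had 4 of 21 higher and 1 lower, with medians of 0.01, 0.67 and -0.09, and Phlda3 was at 145, 146 and 173 TPM against 180, 266 and 213 TPM. These cells carry a T antigen, which binds p53. Cell cycle lists were close to even, with 4 of 28 G2-M genes higher and 3 lower and 3 of 30 replication genes higher and 5 lower, among the latter the polymerase clamp Pcna (-0.46 ± 0.13). Of 21 YAP-TEAD targets 7 were higher and 2 lower, with the ecto-nucleotidase Nt5e at 627, 544 and 629 TPM against 940, 773 and 1008 TPM, Arhgef17 at 0.48 ± 0.17 and Amotl1 at 0.33 ± 0.13. AP-1 and serum response genes had 4 of 23 higher and 0 lower, with Etv5 at 0.45 ± 0.17. NF-kB genes had 3 of 16 higher and 1 lower, the chemokine Ccl7 (-0.51 ± 0.19). Circadian genes had 5 of 14 higher and 0 lower, with the repressor Bhlhe41 at 8.40, 6.93 and 7.33 TPM against 25.7, 10.2 and 15.1 TPM. After centring by chromosome that list had 1 higher and 0 lower. Notch, Wnt and Hedgehog genes had 5 of 16 higher and 1 lower, with the Hedgehog effector Gli3 at 0.61 ± 0.18. Glycolysis genes had 2 of 17 higher and 5 lower, and the phosphofructokinases differed in sign, with the platelet form Pfkp at 0.49 ± 0.15 and the liver form Pfkl at -0.44 ± 0.14. The 16 heat shock chaperone genes had 3 higher and 1 lower, with Bag3 at 0.42 ± 0.15, and the 21 genes of endoplasmic reticulum folding 1 and 1, with Edem1 at 0.37 ± 0.14. Of 5 tested imprinted genes 0 were higher and 1 lower, Sgce, which was listed at 0 in S133A-KCREB and S133A/R314A-CREB and stood at 14 TPM in S133A-CREB, against 17.1, 11.2 and 3.64 TPM in WT-CREB, KCREB and R314A-CREB. Its mean was below 5 TPM in the S133A lines, so it passed the filter only through the lines with intact S133.

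Markers of other cell types were read in full, and the summed level of 3 of the lists did not overlap between the groups. The 15 muscle markers summed to 103 to 173 TPM in the lines with intact S133 and 225 to 242 TPM in the S133A lines, with Myod1, Myog, Myf5 and Actc1 listed at 0 in all 6 libraries. The cardiac troponin gene Tnnt2 accounted for most of this, at 136, 81.2 and 112 TPM against 194, 174 and 205 TPM. Without Tnnt2 the muscle sums overlapped, so their separation rests on that gene. Tnni2 differed by 0.72 ± 0.26. The 16 neuronal and retinal markers summed to 2.3 to 9.8 TPM against 12.1 to 77.3 TPM, with 71.0 TPM of the highest sum from Tubb3, and 14 of the 16 stayed under 1 TPM in every library. Tubb3 was named above for its separation, and without it these sums overlapped, so they add nothing to that gene. Sums of the 19 macrophage and leukocyte markers overlapped (29.1 to 230 against 27.2 to 212 TPM), as did those of the surface ectoderm and cornea (167 to 956 against 114 to 406 TPM) and fibroblast lists (2360 to 3818 against 2569 to 4672 TPM). The leukocyte markers Adgre1, Tyrobp, C1qa, C1qb and Cd3e were listed at 0 in all 6 libraries, Itgb2 differed by 0.89 ± 0.31 and Ms4a4d by -1.53 ± 0.48. Itgb2 had a mean below 5 TPM in the lines with intact S133 and passed the filter only through the S133A libraries. The corneal enzyme Aldh3a1 was at 944, 168 and 164 TPM against 391, 96.9 and 132 TPM, with Krt5 and Krt12 listed at 0. The 13 endothelial markers summed to 2.4 to 3.5 TPM against 4.3 to 5.3 TPM, with Erg listed at 0 in all 6. Of these 13, 11 stayed under 1 TPM in every library, so their separation lies near the floor. The 11 pigment cell markers summed to 8.5 to 11.9 TPM against 9.6 to 26.9 TPM, with 7 listed at 0. Fewer cells of a type and less RNA per cell cannot be told apart in such bulk samples. The part of other cell types in the differences was not tested.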

How the data were processed

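RNA was measured by sequencing in 14 libraries, of which the 6 TGFβ libraries of the CREB lines were compared and their 6 control libraries read beside them. The authors deposited TPM, FPKM and per-base coverage for each gene and library, per the file headers. The submitters' processing notes name STAR 2.7.6a, StringTie 2.0.4, edgeR and the build GRCm39, without roles. Read counts were not analysed here, so no count model or counting interval is given, depth is known only through coverage per FPKM, and genes listed at 0 can be failed estimates. Extra lines of the same gene in a file (2 to 6 per TGFβ library) were summed.

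TPM was taken as log2(TPM + 1), which understates changes of low genes, with a minimum mean of 5 TPM per gene. For the S133A difference, limma (version 3.58.1, under R 4.3.3) used an intensity trend and a term for the bZIP state, which leaves 2 residual degrees of freedom (5.52 after moderation). All tests are two-sided with Benjamini-Hochberg adjustment over 10464 genes and a threshold of 0.05. An exact paired permutation test over 3 pairs cannot go below p = 0.25 and was not used. The interaction was fitted on the differences within lines. The fit was tested on simulated data with independent noise for each gene. Those data held no S133A shifts along chromosomes, so the test cannot show how such shifts affect the calls. The labels give no replicate numbers, and pairs come from the construct labels.

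The comparison, the gene lists and the tests were chosen with earlier results of these data known, and the germ line list in part from them, so none is independent evidence. Named genes were Creb1, any past the threshold, the 12 highest and 12 lowest by their weakest pair among genes without overlap, the 5 and 5 with the largest interaction by the same measure, and up to 4 members of each list with the smallest p (only those with an unadjusted p under 0.05). Predicted genes and pseudogenes were passed over. There were 18 alternatives: pseudocounts of 0.1 and 5, other filters, FPKM, median-of-ratios and quantile scaling, TPM without mitochondrially encoded genes, 3 changes of the model, all 12 libraries with a random block for the line, leaving out each pair and, chosen after seeing the data, centring by chromosome. Promoter windows came from RefSeq on GRCm38.p6, matched by gene symbol (8309 of the tested genes). No genome sequence was read at the coordinates of the deposited tables.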

Additional observations from a re-analysis of the deposited data

Results flagged for a closer look

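Snora75, a small nucleolar RNA, was lower with S133A in all 3 TGFβ pairs and higher in all 3 control pairs. Its mean with TGFβ was below 5 TPM in the S133A lines, so it passed the filter only through those with intact S133. It stood at 8.08, 8.40 and 5.49 TPM in WT-CREB, KCREB and R314A-CREB against 3.30, 3.52 and 2.86 TPM in their S133A partners with TGFβ, and at 3.76, 2.04 and 2.02 TPM against 6.30, 3.98 and 3.14 TPM in control. The difference between treatments was -1.56 ± 0.23 (log2, SE) with a limma adjusted p of 0.773 over all genes, which misses the threshold. Of 3157 genes with a shared direction in the TGFβ pairs, 29 turned in this way.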

How the results depend on the processing

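Cox7b2, the 1 gene called, was higher with S133A under each of the 18 alternatives, by 2.64 to 3.79 (log2). No gene was called with a pseudocount of 0.1 (adjusted p of Cox7b2 0.0506), without a filter (0.812), at a mean of 1 TPM (0.0774) or 10 TPM (0.0594), with quantile normalization (0.0697), with all 12 libraries and a random block for the line (0.0795), centred by chromosome (0.0693), or without the K or R314A pair. There were 2 calls with a pseudocount of 5 and in FPKM (Cox7b2 and Gm46220 in both) and without the intensity trend (Cox7b2 and Nlrp4e), and leaving out each pair gave 0 to 6 calls. The 6, without the intact pair, were Aif1l, Cox7b2, Gm46220, Krt14, Mmp9 and Oasl1. In control libraries the count of 0 became 1 without the bZIP term (Cox7b2) and 2 with all 12 libraries and that random block (Cox7b2 and Nlrp4e), and the interaction count stayed at 0 wherever it was fitted. The 22 genes at least 2-fold higher in each pair became 10 with a pseudocount of 5, 45 without a filter and at 1 TPM, and 14 at 10 TPM and in FPKM, and 49 to 63 with 2 pairs. The 1 lower gene became 2 with a pseudocount of 0.1, without a filter and with quantile normalization, 0 with a pseudocount of 5 and at 10 TPM, and 14 to 42 with 2 pairs. Genes that did not overlap numbered 1228 higher and 1098 lower without a filter, and 1735 to 1854 higher and 1447 to 2167 lower with 2 pairs, where separation is easier to reach. Of the named genes, 3 changed sign when a pair was left out, the cause of which was not tested: Creb1 (-0.48 to 0.18), Cnbd2 (-0.090 to 1.01) and Sts (-0.47 to 0.30). List medians moved by more than their spread in 28 of 559 instances. The labels give no replicate numbers, so no fit with a replicate block was made. Pairs by bZIP state are in the fit, and libraries of the same line were paired in the interaction and in the random block.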
